A study of Rattus norvegicus with 23 samples.

Results

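Protease inhibitors were examined in microglia of neonatal rats: the broad protease trap A2m, the leukocyte elastase inhibitor Slpi, the serpins Serpina3n, Serping1 and Serpinb1a, and the cystatins Cst3 and Cstb. The genes were listed by name, and the list was put together because A2m was higher step by step towards the LPS/HI group. Of 7 listed genes, 6 were among the 20301 genes of the table, and Serpina3n was not analysed here. Since the pattern of A2m over the groups chose the list, its values are given as a description with no test, and the other 5 genes were tested. Slpi had been picked by the study from these same samples, so its direction is not independent evidence.

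RNA was sequenced from CD11b/c-selected microglia of Wistar rats at postnatal day 7, taken 24 h after a unilateral carotid ligation followed by hypoxia (hypoxia-ischemia, HI) or after a sham operation. The Sham group held 6 samples with no injection listed, and the LPS group 5 samples given lipopolysaccharide at 0.1 mg/kg 4 h before the operation. The NaCl/HI group and the LPS/HI group held 6 samples each, given saline or the same LPS dose 4 h before ligation and 50 min of hypoxia at 8% oxygen. Whole brains of single pups (1 per sample) were used for Sham and LPS, whereas ipsilateral hemispheres of 2 pups were pooled for the HI groups, so HI, the tissue taken and pooling cannot be told apart. LPS against Sham likewise cannot be told apart from injection against none.

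The values are log2 values on the rlog scale, which draws weakly expressed genes towards their mean, and 3 surrogate variables had been removed from them by the authors. Differences are therefore differences of corrected log2 values, and they can understate the change of a weakly expressed gene. Values are not per length, so levels are comparable between samples and not between genes, and the gene means given for marker lists only show the range of values in a list. Depth per sample is unknown. The 16 microglia genes, which check the labelled cell type, had means per sample between 13.5 and 13.9, with gene means from 7.29 (Olfml3) to 16.5 (Csf1r). Against Sham, 3 of the 16 were higher and 7 lower in LPS (median difference -0.17), and 2 were lower in LPS/HI (median -0.05), where 17.8% and 8.77% of all genes passed an adjusted p under 0.05. After the sample itself was left out of its group mean, 3 libraries lay nearer to another group than to their own: NaCl/HI replicate 3 to LPS/HI, NaCl/HI replicate 4 to Sham, and LPS/HI replicate 1 to NaCl/HI. In bulk samples, a change in the number of cells of a type cannot be told apart from a change in RNA per cell.

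Proteases are held in check by inhibitors of several unrelated folds. A2m encloses proteases of all catalytic classes, and the complexes are cleared through the receptor Lrp1. In the rat it is a classic acute-phase gene that responds to IL-6 through Stat3. Serpins act as suicide substrates of serine proteases, Slpi blocks neutrophil elastase and cathepsin G reversibly, and cystatins block the cysteine cathepsins of the lysosome. Serping1, the C1 inhibitor, stops the complement proteases C1r and C1s. Microglia are rich in cathepsins and cystatin C, and neutrophils and monocytes carry serine proteases together with Slpi and Serpinb1a.

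Upstream sequence is shown for the only tested gene that was higher with LPS on the HI background, Serpinb1a, and for Cst3, which did not pass in any comparison, because RefSeq promoters for both were at hand. Of the 6 genes in the table, 3 matched the promoter set (Serpinb1a, Cst3 and Cstb). The 250 bases before each start are given 5′ to 3′ on the coding strand of build GRCr8, with motif matches in capitals. Serpinb1a lies at chr17:31799196-31799445 on the plus strand and Cst3 at chr3:156793938-156794187 on the minus strand.
Serpinb1a: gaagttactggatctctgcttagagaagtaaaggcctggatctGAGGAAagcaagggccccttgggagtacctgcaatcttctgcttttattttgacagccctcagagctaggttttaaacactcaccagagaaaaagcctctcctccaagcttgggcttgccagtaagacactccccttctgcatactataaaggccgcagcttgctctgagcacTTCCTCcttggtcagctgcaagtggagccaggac
Cst3: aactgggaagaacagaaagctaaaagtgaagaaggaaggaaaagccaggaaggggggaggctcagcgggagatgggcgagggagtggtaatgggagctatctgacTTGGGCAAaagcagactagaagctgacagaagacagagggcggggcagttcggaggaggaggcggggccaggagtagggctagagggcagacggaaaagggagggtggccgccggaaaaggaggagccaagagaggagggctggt

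The motifs searched on both strands were GAGGAA (the core bound by PU.1), TTCNNNGAA (bound by STAT proteins), TTGCNNAA (bound by C/EBP proteins) and the NF-kB motif. No searched motif overlapped another in these windows. Serpinb1a held GAGGAA at 2 places, a motif found in 23.3% of 33469 upstream windows of the same length. Cst3 held 1 TTGCNNAA match on the opposite strand, a motif in 9.22% of the windows. TTCNNNGAA occurs in 7.67% of the windows and the NF-kB motif in 3.54%, and neither set of letters is in the Serpinb1a or Cst3 window. The Cstb window, which is not printed, held 1 TTCNNNGAA match and no other. A match describes the letters and not a bound site.

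A2m, the broad protease trap, was highest in LPS/HI, and every LPS/HI sample lay above every sample of the other 3 groups. Beside Sham, LPS/HI samples did not overlap for 6.37% of all genes, beside LPS for 4.17% and beside NaCl/HI for 1.33%. In Sham the log2 values ran from 7.92 to 8.32 with a median of 8.14, and in LPS they were 8.30, 8.61, 8.54, 8.39 and 8.26. In NaCl/HI they ran from 8.11 to 8.52 with a median of 8.31, and in LPS/HI from 8.65 to 9.17 with a median of 8.93. The order of the group means was Sham (8.11 ± 0.15, SD, n = 6), NaCl/HI (8.32 ± 0.17, SD, n = 6), LPS (8.42 ± 0.15, SD, n = 5) and LPS/HI (8.91 ± 0.19, SD, n = 6). Neighbours among the first 3 groups overlapped, and LPS and NaCl/HI differed by 0.10, less than the SD of either group.

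The mean of A2m in LPS/HI was higher than in Sham by 0.79 on the log2 scale, a ratio of 1.73. It was higher than in NaCl/HI by 0.59 and higher than in LPS by 0.49. LPS alone lay above Sham by 0.31 and NaCl/HI by 0.21. The library names run in a single numbering in which replicates 1 to 3 of every group precede the rest. No label names a batch, and the samples were split at that point here. A2m in LPS/HI exceeded Sham by 0.78 among replicates 1 to 3 and by 0.81 among the later replicates. Without the 3 libraries nearer to another group the difference was 0.83. All of these are the same values that chose the list, so they describe A2m and give no independent support. The 3 other genes of the alpha-2-macroglobulin family in the table did not pass in any limma comparison, and 1 had an unadjusted p under 0.05 in LPS and 1 in LPS/HI against Sham, beside 32% and 26.8% of all genes. A2m and Serpinb1a have closely related rat genes, and how reads were divided among them was not tested.

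Genes of other cell types also differed between LPS/HI and Sham, where 6 of 12 pericyte and fibroblast genes, 3 of 12 astrocyte genes and 2 of 11 endothelial genes were higher, and 4 of 12 neuronal genes lower, beside 8.77% of all genes. In LPS/HI against LPS, 5 of the 12 pericyte and fibroblast genes and 3 of the 11 endothelial genes were higher, beside 1.94%. The mean of the astrocyte list ran from 9.71 to 10.12 in Sham, 9.93 to 10.25 in LPS, 9.61 to 10.34 in NaCl/HI and 10.02 to 10.30 in LPS/HI. The part of these cells in the A2m values was not tested.

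**Figure D1:**
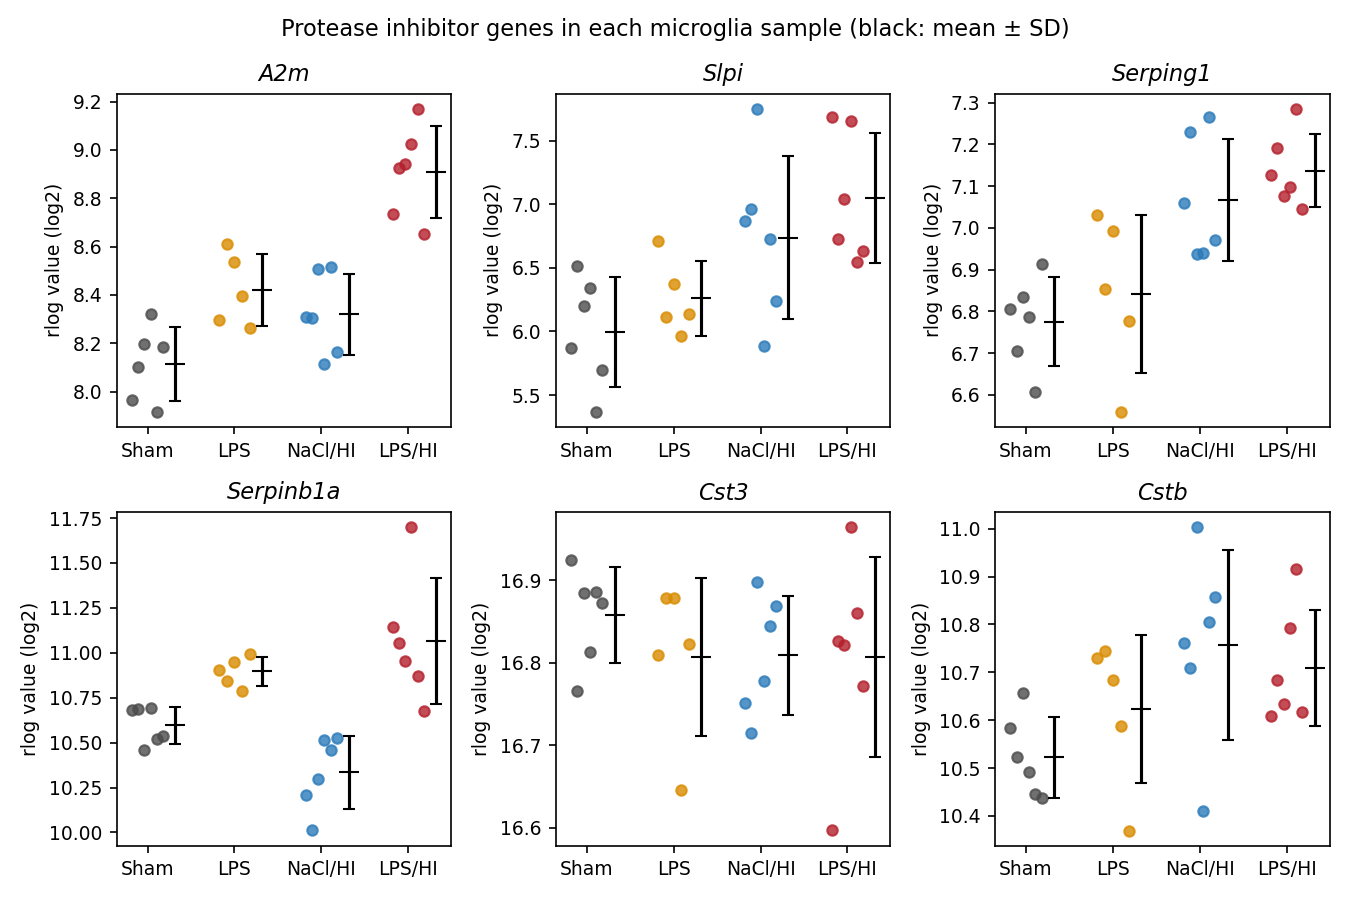
Log2 rlog values of 6 protease inhibitor genes (y axis, a separate scale for each gene) in the 4 groups, with a point for each sample and the mean ± SD in black. A2m in LPS/HI (8.65 to 9.17) lay above all other samples, Serpinb1a was lowest in NaCl/HI, and Cst3 stayed near 16.8 in every group.

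Among the 5 tested genes, 3 passed an adjusted p under 0.05 in LPS/HI against Sham, all higher in LPS/HI: Slpi, Serping1 and Serpinb1a. Over all genes, 8.77% passed in that comparison. The median difference of the 5 genes was 0.36, and that of all genes was -0.0024. The samples of the 2 groups did not overlap for Slpi and Serping1, as was the case for 6.37% of all genes. The tests are limma fits over all 20301 genes and 23 samples, two-sided, with Benjamini-Hochberg adjustment over all genes of a comparison.

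Slpi, the secreted inhibitor of neutrophil elastase and cathepsin G, was 2.07 times higher in LPS/HI than in Sham on this scale (log2 difference 1.05, SE 0.27, limma adjusted p = 0.0228). Sham samples ran from 5.37 to 6.52 with a median of 6.03, and LPS samples were 6.71, 6.11, 6.37, 5.97 and 6.13. NaCl/HI samples ran from 5.88 to 7.75 with a median of 6.80, and LPS/HI samples from 6.55 to 7.69 with a median of 6.88. The HI groups spread widely, with SDs of 0.64 in NaCl/HI and 0.51 in LPS/HI, and the highest sample of all was NaCl/HI replicate 3. The call did not hold when LPS/HI replicate 4 (limma adjusted p = 0.0547), Sham replicate 5 (adjusted p = 0.0554) or Sham replicate 6 (adjusted p = 0.0510) was left out.

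Slpi in NaCl/HI was higher than in Sham by 0.74 (95% interval 0.18 to 1.31, limma adjusted p = 0.228), which did not pass. Against LPS, the LPS/HI group was higher by 0.79 (0.20 to 1.38, adjusted p = 0.160). Between LPS/HI and NaCl/HI the difference was 0.31 (-0.26 to 0.87, adjusted p = 0.727), and it was -0.04 among replicates 1 to 3 and 0.66 among replicates 4 to 6. The order of the means was Sham, LPS, NaCl/HI and LPS/HI, and each neighbour overlapped the next.

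Markers of neutrophils, which carry Slpi, differed in part along with it. The mean of 15 neutrophil genes ran from 6.49 to 6.93 in Sham, 6.29 to 6.75 in LPS, 6.36 to 7.05 in NaCl/HI and 6.66 to 7.63 in LPS/HI. In LPS/HI against Sham, 6 of the 15 genes passed, all higher, beside 8.77% of all genes, and the median difference of the list was 0.33. The other 9 did not pass, among them Ngp at -0.58 (SE 0.22, limma adjusted p = 0.0939). In NaCl/HI against Sham, where Slpi differed by 0.74, none of the 15 passed in limma (0.00985% of all genes did), 1 had an unadjusted p under 0.05 beside 14.8% of all genes, and the list median was 0.012. In LPS against Sham 1 was higher and 3 were lower beside 17.8% of all genes, with a list median of -0.16. In LPS/HI against LPS, where Slpi differed by 0.79, 2 of the 15 were higher beside 1.94% of all genes, 11 had an unadjusted p under 0.05 beside 15.5%, and the list median was 0.67. Gene means in the list ran from 2.65 (Mpo) to 11.8 (Csf3r). The 2 LPS/HI samples with the highest Slpi, replicates 1 (7.69) and 4 (7.66), had list means of 7.36 and 7.63, and NaCl/HI replicate 3 had 7.05, the highest mean of its group. Of 10 monocyte genes, 4 were higher in LPS/HI than in Sham and none lower, beside 8.77% of all genes, with a list median of 0.24. In NaCl/HI against Sham none of the 10 passed in limma, 3 had an unadjusted p under 0.05 beside the 14.8%, and the list median was 0.25. The mean of the monocyte list ran from 8.65 to 9.01 in Sham, 9.0045 to 9.25 in LPS, 8.84 to 9.29 in NaCl/HI and 8.99 to 9.51 in LPS/HI. LPS/HI replicate 1 had the highest mean of the LPS/HI group and NaCl/HI replicate 3 that of the NaCl/HI group. In LPS against Sham 3 of the 10 were higher and none lower, beside 17.8% of all genes, with a list median of 0.08, and Slpi differed by 0.26 (limma adjusted p = 0.568). The part of neutrophils and monocytes in the Slpi values was not tested.

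**Figure D2:**
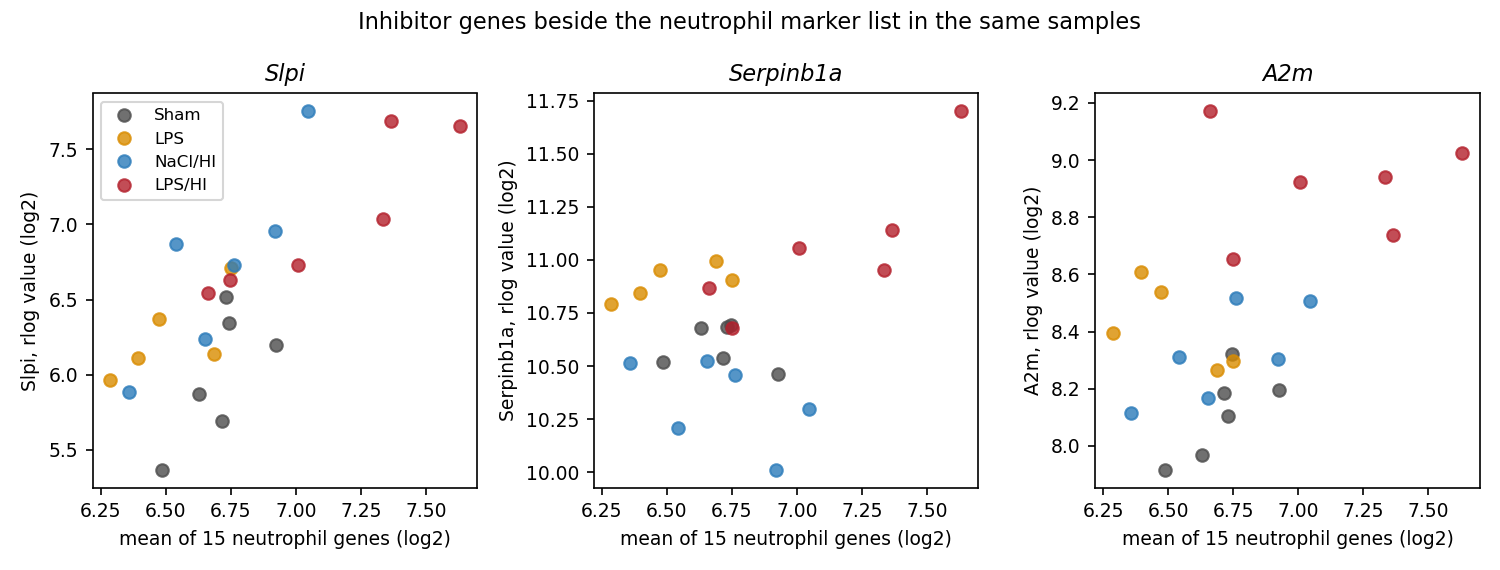
Log2 values of Slpi, Serpinb1a and A2m (y axes) against the mean log2 value of 15 neutrophil genes (x axis), with a point for each of the 23 samples coloured by group. The LPS/HI sample with the highest neutrophil mean, 7.63, had the highest Serpinb1a, 11.70, and the next to highest A2m, 9.02, and the LPS/HI sample with the highest A2m, 9.17, had the lowest neutrophil mean of its group, 6.66.

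Serping1, the C1 inhibitor, had its higher group means in both HI groups, at 7.07 ± 0.15 (SD, n = 6) in NaCl/HI and 7.14 ± 0.09 (SD, n = 6) in LPS/HI beside 6.78 ± 0.11 (SD, n = 6) in Sham and 6.84 ± 0.19 (SD, n = 5) in LPS. Sham samples ran from 6.61 to 6.91 with a median of 6.80, and LPS samples were 7.03, 6.85, 6.99, 6.56 and 6.78. NaCl/HI samples ran from 6.94 to 7.26 with a median of 7.02, and LPS/HI samples from 7.04 to 7.29 with a median of 7.11. No sample of either HI group was as low as the highest Sham sample. LPS/HI exceeded Sham by 0.36 (SE 0.08, limma adjusted p = 0.0127), and this passed in all 23 fits that left out 1 library.

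NaCl/HI exceeded Sham in Serping1 by 0.29 (95% interval 0.12 to 0.47, limma adjusted p = 0.157). None of the 5 genes passed in that comparison, in which 0.00985% of all genes passed, while 4 of the 5 had an unadjusted p under 0.05, as did 3005 of all genes (14.8%). Of these 4, Serpinb1a differed by -0.26 and the other 3 were above 0. Serping1 was the only one of the 5 whose samples did not overlap there, as held for 1.01% of all genes. LPS/HI exceeded LPS in Serping1 by 0.30 (0.11 to 0.48, adjusted p = 0.0780), with no overlap, which held for 4.17% of all genes. LPS/HI and NaCl/HI differed in Serping1 by 0.07 (-0.10 to 0.24, adjusted p = 0.806).

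Of 9 complement and contact proteases, the list that holds the targets of Serping1, 2 were higher in LPS/HI than in Sham and none lower, beside 8.77% of all genes. C1s in LPS/HI exceeded Sham by 0.54 (SE 0.14, limma adjusted p = 0.0240), and C1r by 0.27 (SE 0.08, adjusted p = 0.0401). The C1s call held in 19 of 23 fits that left out 1 library, and the C1r call in 14. In 12 other settings they held 11 and 7 times. Of the 12 pericyte and fibroblast genes, the 6 that passed in LPS/HI against Sham were all higher. In NaCl/HI against Sham none passed in limma and 5 had an unadjusted p under 0.05, beside 14.8% of all genes. The mean of that list ran from 8.93 to 9.15 in Sham, 8.85 to 9.17 in LPS, 9.04 to 9.30 in NaCl/HI and 9.16 to 9.38 in LPS/HI, with gene means from 6.23 (Lum) to 11.7 (Col3a1). The part of these cells in the values of Serping1 was not tested.

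Serpinb1a, an intracellular inhibitor of neutrophil elastase, cathepsin G and proteinase 3, was higher in both LPS-treated groups than in NaCl/HI. NaCl/HI samples ran from 10.01 to 10.52 with a median of 10.38, and Sham samples from 10.46 to 10.69 with a median of 10.61. LPS samples were 10.91, 10.85, 10.95, 10.79 and 10.99, and LPS/HI samples ran from 10.68 to 11.70 with a median of 11.004. The order of the means was NaCl/HI (10.34 ± 0.20, SD, n = 6), Sham (10.60 ± 0.10, SD, n = 6), LPS (10.90 ± 0.08, SD, n = 5) and LPS/HI (11.07 ± 0.35, SD, n = 6). All samples of both LPS-treated groups lay above all NaCl/HI samples, and LPS/HI replicate 4 (11.70) was well above the rest of its group.

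LPS/HI exceeded NaCl/HI in Serpinb1a by 0.73 (SE 0.12, limma adjusted p = 0.0185), a ratio of 1.66. Serpinb1a was the only one of the 5 to pass in that comparison, in which 0.202% of all genes passed. The samples did not overlap, as held for 1.33% of all genes, and the difference was 0.88 among replicates 1 to 3 and 0.58 among replicates 4 to 6. The call did not hold when LPS/HI replicate 2 (limma adjusted p = 0.0505), NaCl/HI replicate 1 (adjusted p = 0.0567) or NaCl/HI replicate 2 (adjusted p = 0.0521) was left out. It was also lost in the fit of the 2 groups alone (limma adjusted p = 0.158). The exact Wilcoxon test gave an adjusted p of 0.162, the lowest that any gene could reach there.

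LPS exceeded NaCl/HI in Serpinb1a by 0.56 (SE 0.13, limma adjusted p = 0.00699). It was again the only one of the 5 to pass, against 8.98% of all genes, and its samples did not overlap, as held for 7.31% of all genes. The call held in all 23 fits that left out 1 library. The exact Wilcoxon test gave an adjusted p of 0.0593, the lowest that any gene could reach there. LPS/HI exceeded Sham in Serpinb1a by 0.47 (SE 0.12, limma adjusted p = 0.0212), with overlapping samples. That call did not hold in the fit of the 2 groups alone (adjusted p = 0.0551) or by the exact Wilcoxon test (adjusted p = 0.0813).

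LPS exceeded Sham in Serpinb1a by 0.30 (95% interval 0.04 to 0.56, limma adjusted p = 0.102), which did not pass although the samples did not overlap, as held for 13.9% of all genes. None of the 5 genes passed in LPS against Sham, where 17.8% of all genes passed. Only Serpinb1a had an unadjusted p under 0.05 there, beside 32% of all genes. Without LPS/HI replicate 4 its adjusted p was 0.0265, the fit of the 2 groups alone gave 0.00828, and the exact Wilcoxon test 0.0312. The effect of LPS on the HI background minus its effect without HI was 0.43 for Serpinb1a (0.07 to 0.79, limma adjusted p = 0.239). None of the 5 genes passed this interaction in limma, against 1.08% of all genes, and 1 had an unadjusted p under 0.05, beside 15.1% of all genes.

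In LPS/HI against LPS, none of the 5 genes passed in limma, beside 1.94% of all genes, and 2 had an unadjusted p under 0.05, beside 15.5%. No gene could pass the exact Wilcoxon test there. Serpinb1a differed there by 0.17 (95% interval -0.09 to 0.43, limma adjusted p = 0.578). As the plot beside the neutrophil list shows, LPS samples had Serpinb1a values above all Sham samples while their neutrophil means (6.29 to 6.75) lay within or below the Sham range. None of the 15 neutrophil genes passed in limma in LPS/HI against NaCl/HI, 6 had an unadjusted p under 0.05 beside 10.6% of all genes, and the list median was 0.36. In the interaction none passed, 11 had an unadjusted p under 0.05 beside 15.1% of all genes, and the list median was 0.67. Of the 10 monocyte genes, 3 were higher in LPS than in Sham (list median 0.08) and 2 higher in LPS than in NaCl/HI (list median -0.04). None was lower in either, beside 17.8% and 8.98% of all genes passing. In LPS/HI against NaCl/HI none of the 10 passed in limma, 5 had an unadjusted p under 0.05 beside 10.6% of all genes, and the list median was 0.16. The part of neutrophils and monocytes in the Serpinb1a values was not tested.

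**Figure D3:**
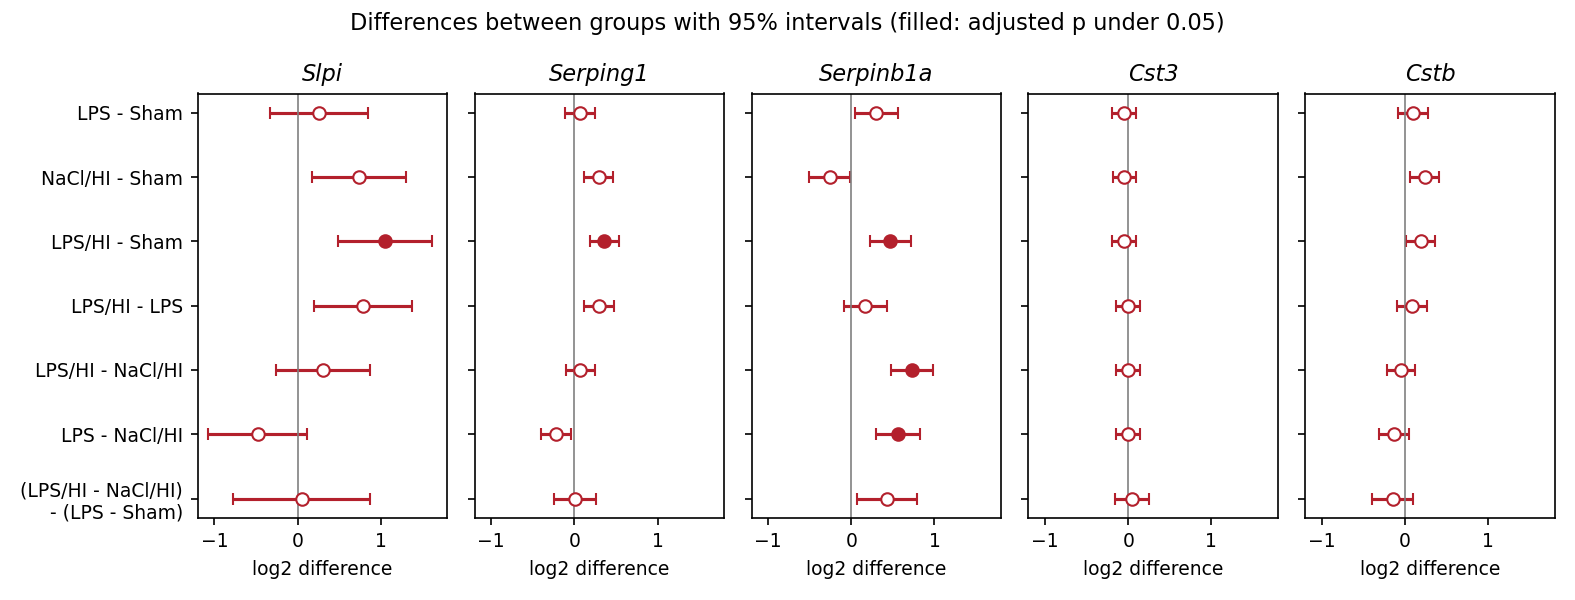
Log2 differences (x axis) for the 5 tested genes in the 6 pairs of groups and the interaction (y axis), with 95% intervals from the limma fit; filled points have an adjusted p under 0.05. Slpi, Serping1 and Serpinb1a passed in LPS/HI against Sham, and Serpinb1a also in both comparisons of an LPS-treated group with NaCl/HI.

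Neither cystatin passed in any of the 7 limma comparisons, and Cstb alone had an unadjusted p under 0.05, in 2 of them. By the exact Wilcoxon test neither passed in LPS or LPS/HI against Sham, and no gene could pass in the other pairs. Cst3, the secreted cystatin C, stayed between 16.60 and 16.96 in all 23 samples, with group means of 16.86 in Sham and 16.81 in the other groups. LPS/HI against Sham gave -0.05 (95% interval -0.19 to 0.09, limma adjusted p = 0.669). Quantile normalization turned the sign of some of its small differences.

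Cstb, the cytosolic cystatin B, had its lowest mean in Sham (10.52 ± 0.08, SD, n = 6) and its highest in NaCl/HI (10.76 ± 0.20, SD, n = 6), with LPS at 10.62 and LPS/HI at 10.71. NaCl/HI exceeded Sham by 0.23 (95% interval 0.06 to 0.41, limma adjusted p = 0.210). The NaCl/HI samples overlapped those of Sham (10.44 to 10.66), and replicate 4 was the lowest at 10.41. Without NaCl/HI replicate 4 the adjusted p was 0.0314. LPS/HI exceeded Sham by 0.19 (0.01 to 0.36, adjusted p = 0.153), and by 0.21 without the 3 libraries nearer to another group (adjusted p = 0.0494).

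Of the 11 cysteine cathepsins and legumain, the group that cystatins block, LPS had 3 higher and 1 lower than Sham, and LPS/HI had 2 higher, beside 17.8% and 8.77% of all genes passing. Ctsz rose from 13.46 ± 0.04 (SD, n = 6) in Sham to 14.20 ± 0.16 (SD, n = 5) in LPS, a difference of 0.74 (SE 0.07, limma adjusted p = 1.11e-06). In LPS/HI it exceeded Sham by 0.50 (SE 0.07, adjusted p = 0.00094). Its interaction was -0.61 (SE 0.10, adjusted p = 0.0121). Ctsh was higher in LPS than in Sham by 0.30 (SE 0.05, adjusted p = 0.000333) and higher than in NaCl/HI by 0.28 (SE 0.05, adjusted p = 0.00158).

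Ctsk, a collagen-degrading cathepsin, in LPS/HI exceeded LPS by 0.33 (SE 0.07, limma adjusted p = 0.0215), and in LPS against NaCl/HI its difference was -0.25 (SE 0.07, adjusted p = 0.0308). These calls held in 19 and 17 of 23 fits that left out 1 library, and in 8 and 7 of 12 other settings. The 11 serine proteases of neutrophils and other leukocytes, a list not limited to the targets of Slpi and Serpinb1a, gave no call in LPS/HI against Sham. The median difference of this list was 0.04, and none was under an unadjusted p of 0.05, beside 26.8% of all genes. Among the complement and contact proteases, Masp1 was higher in LPS than in Sham by 0.24 (SE 0.08, adjusted p = 0.0413), which held in 15 of those 23 fits. In all, 5 of 31 target proteases passed in LPS against Sham and 4 in LPS/HI against Sham, the latter between 1 and 6 when 1 library was left out, beside 17.8% and 8.77% of all genes. Their median difference in LPS/HI against Sham was 0.06.

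Of 97 other inhibitor genes listed, 58 were in the table. In LPS against Sham, 4 were higher and 7 lower, which is 11 of 58 beside the 17.8% of all genes. In LPS/HI against Sham, 5 were higher and 2 lower, 7 of 58 beside 8.77% of all genes, with a median difference of 0.01. The 7 calls became between 3 and 10 when 1 library was left out. In LPS/HI against LPS 4 were higher beside 1.94% of all genes, and in LPS/HI against NaCl/HI 1 was higher beside 0.202%. These counts ran from 1 to 4 and from 0 to 2 when 1 library was left out, moving by over 1.5 times without 15 and 19 of the 23 libraries. Both were 0 in the fit of the 2 groups alone, and no gene could pass the exact Wilcoxon test in either comparison. In LPS against NaCl/HI 1 was higher and 2 lower beside 8.98%. None passed in limma in NaCl/HI against Sham (0.00985% of all genes), where 5 had an unadjusted p under 0.05, beside 14.8% of all genes.

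Timp1, which inhibits matrix metalloproteinases, was higher in LPS than in Sham by 0.71 (SE 0.11, limma adjusted p = 0.000129) and in LPS/HI by 0.79 (SE 0.11, adjusted p = 0.000843). Its mean in NaCl/HI was 9.15 ± 0.21 (SD, n = 6) beside 8.58 ± 0.16 (SD, n = 6) in Sham, which did not pass. Fetub, fetuin-B of the cystatin family, had means of 2.15 in Sham and 2.56 in LPS/HI, a difference of 0.41 (SE 0.10, adjusted p = 0.0190), and it exceeded LPS by 0.43 (SE 0.11, adjusted p = 0.0396), which held in 14 of 23 fits that left out 1 library. Serpinb6a in LPS/HI exceeded LPS by 0.32 (SE 0.08, adjusted p = 0.0496), which held in 5 of those fits.

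Some of the calls were of lower values in LPS. Papln, the matrix protein papilin, was lower in LPS than in Sham, with a log2 difference of -0.44 (SE 0.11, limma adjusted p = 0.00595). Spink1, a trypsin inhibitor, gave -0.36 (SE 0.12, adjusted p = 0.0422), and this held in 15 of 23 fits that left out 1 library. LPS against NaCl/HI, a comparison that also differs in HI, tissue and pooling, gave -0.81 for Serpinb8 (SE 0.21, adjusted p = 0.0209) and -0.25 for Serpinc1, antithrombin (SE 0.06, adjusted p = 0.0183). Each held in 22 of those 23 fits, and in 9 and 7 of 12 other settings. Neither passed in LPS against Sham. Serpinb8 had means of 5.19 ± 0.59 (SD, n = 6) in NaCl/HI, 4.63 in Sham, 4.38 in LPS and 4.71 in LPS/HI. Spint2, an inhibitor of membrane serine proteases, was higher in LPS than in NaCl/HI by 0.37 (SE 0.07, adjusted p = 0.00123).

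**Figure D4:**
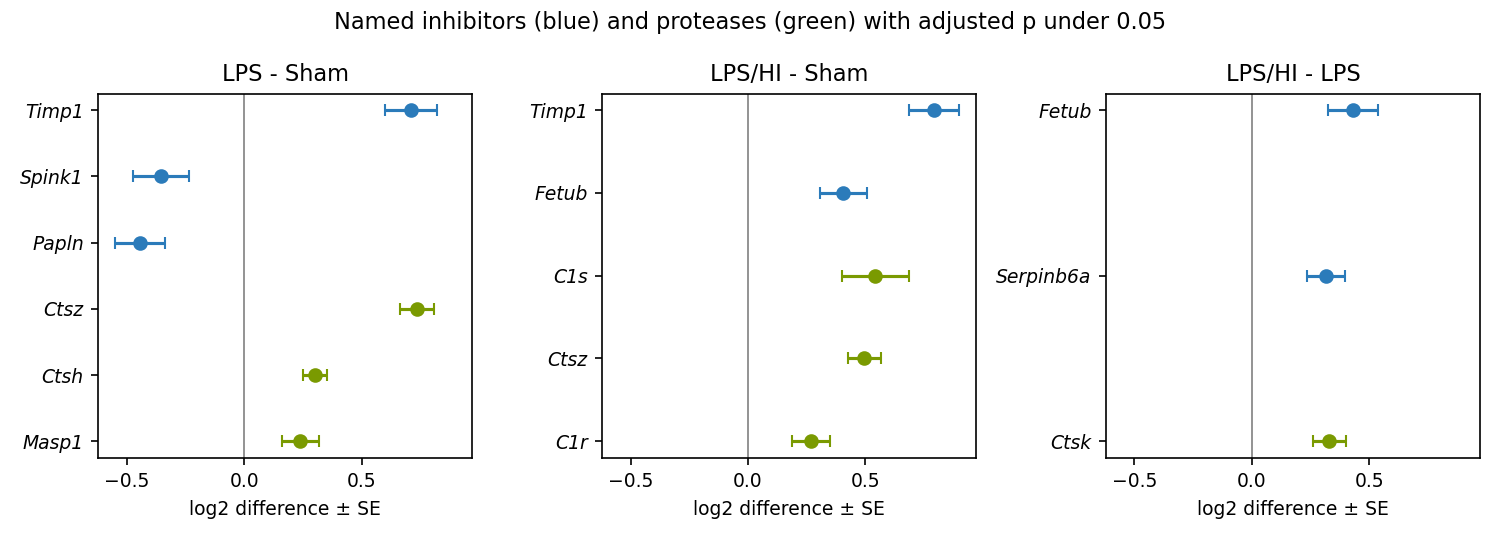
Log2 differences ± SE (x axis) of inhibitors (blue) and target proteases (green) named in the text that passed an adjusted p under 0.05 in 3 comparisons; y axes list the genes. Timp1 (0.71 and 0.79) and Ctsz (0.74 and 0.50) were higher in both LPS and LPS/HI than in Sham, and Papln and Spink1 were lower in LPS.

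Of the 7 receptors and receptor partners for inhibitor complexes, 1 was higher and 2 lower in LPS than in Sham, beside 17.8% of all genes. Lrp1, which clears A2m complexes, differed by -0.40 in LPS against Sham (SE 0.08, limma adjusted p = 0.00157) and by -0.51 in LPS against NaCl/HI (SE 0.08, adjusted p = 0.000414). In LPS/HI its mean stood at 15.69 ± 0.07 (SD, n = 6) beside 15.87 ± 0.14 (SD, n = 6) in Sham, which did not pass. Lrp8 was lower by a log2 difference of -0.25 (SE 0.06, adjusted p = 0.00747) and the chaperone Lrpap1 higher by 0.24 (SE 0.04, adjusted p = 0.000225) in LPS against Sham. Vldlr was lower in LPS than in NaCl/HI, with a log2 difference of -0.39 (SE 0.08, adjusted p = 0.0029).

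Of 16 genes of IL-6 family signalling, 4 were higher and 4 lower in LPS against Sham, beside 17.8% of all genes, while LPS/HI against Sham gave 4 calls above 0 and 1 below, beside 8.77%. The 4 lower in LPS were Il6st (-0.55, SE 0.07, limma adjusted p = 3.14e-05), Osmr (-0.37, SE 0.08, adjusted p = 0.00182), Lif (-0.35, SE 0.11, adjusted p = 0.0253) and Il6 (-0.30, SE 0.08, adjusted p = 0.00992). The 1 lower in LPS/HI was Il6st (-0.36, SE 0.07, limma adjusted p = 0.00527). Bcl3 was higher by 0.73 in LPS (SE 0.10, limma adjusted p = 3.47e-05) and by 0.62 in LPS/HI (SE 0.10, adjusted p = 0.00155). Pim1, a kinase induced through Stat3, was higher by 0.67 in LPS than in Sham (SE 0.07, adjusted p = 1.06e-06) and in LPS/HI exceeded NaCl/HI by 0.35 (SE 0.06, adjusted p = 0.0302), and it was lower in LPS/HI than in LPS by a log2 difference of -0.27 (SE 0.07, adjusted p = 0.0396). The last 2 of these calls held in 16 and 12 of 23 fits that left out 1 library. Osmr, the oncostatin M receptor, had means of 7.93 in Sham, 7.56 in LPS, 7.78 in NaCl/HI and 8.02 in LPS/HI. Osmr in LPS/HI exceeded LPS by 0.47 (SE 0.08, adjusted p = 0.00794), and its interaction was 0.62 (SE 0.11, adjusted p = 0.0124).

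Of 16 acute-phase genes, 2 were higher in LPS and 5 in LPS/HI than in Sham, and none was lower, beside 17.8% and 8.77% of all genes. C3, the central complement component, was higher by 1.52 in LPS (SE 0.17, limma adjusted p = 4.17e-06) and by 1.24 in LPS/HI (SE 0.17, adjusted p = 0.000843), with an interaction of -0.99 (SE 0.24, adjusted p = 0.0474) that held in 4 of 23 fits that left out 1 library. Cd14 was higher in LPS/HI than in Sham by 0.58 (SE 0.14, adjusted p = 0.0184), and Ptx3, the long pentraxin, higher than in LPS by 0.66 (SE 0.15, adjusted p = 0.0326), the latter holding in 16 of 23 fits that left out 1 library and 6 of 12 other settings. Lcn2, lipocalin 2, which the study also picked on these samples, in LPS/HI exceeded NaCl/HI by 1.06 (SE 0.22, adjusted p = 0.0460), which held in 4 of these 23 fits and 3 of the 12 settings.

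The genes whose values over the 23 samples were most like those of A2m were Nqo1 (Pearson r = 0.88), Sbno2 (0.88), Acaa2 (0.85), Flnc (0.84) and Mfap4 (0.84). All samples share the removal of the same surrogate variables, and the correlation holds the differences between groups. After the group means were subtracted, r was between 0.64 and 0.72 for these 5 genes. Slpi was most like Mcemp1 (0.94), Bst1 (0.94) and Napsa (0.93), of which Mcemp1 is in the neutrophil list. After the group means were subtracted, these 3 had r between 0.90 and 0.95.

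Serping1 was most like Ass1 (Pearson r = 0.89), Pcolce (0.85) and Plac9 (0.85), of which Pcolce enhances collagen processing. Serpinb1a was most like Tgm1 (0.91), Stfa2l1 (0.84), a stefin of the cystatin family, and Ogfrl1 (0.84). Cst3 was most like Rbm7 (0.79), Sft2d1 (0.78) and Tprg1l (0.76), and Cstb most like Tomm5 (0.91), Cycs-ps9 (0.89) and Kdelr2 (0.89). None of these genes was shared between the lists of 2 members.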

How the data were processed

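Microglia RNA of 23 samples was compared, 6 each of Sham, NaCl/HI and LPS/HI and 5 of LPS, as grouped by their titles. Per the labels and the study's methods, the authors used FastQC 0.11.9, MultiQC 1.14 and kallisto 0.48.0 on mRatBN7.2 transcripts, applied the rlog transformation of DESeq2 to counts per gene, and removed 3 surrogate variables. The study's methods do not state that the groups were kept in that removal, and this was assumed here. The deposited values are log2 values of 20301 genes, so a DESeq2 or other count test could not be run and the depth of each sample is unknown. Removal of such variables with the groups kept can make p-values too small where those variables overlap with the groups.

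Values were fitted with limma 3.58.1 in R 4.3.3 over all genes and samples, with a variance trend. For the removed variables, 16 residual degrees of freedom were used in place of 19, and after subtraction of group means the samples spanned 16 dimensions. The 6 pairs of groups and the interaction (LPS/HI minus NaCl/HI) minus (LPS minus Sham) were tested two-sided with Benjamini-Hochberg adjustment over all genes, and a gene passed at adjusted p under 0.05 with no fold threshold. The fit was also run on simulated data whose hidden variables were known and removed exactly. The authors estimated theirs from the data, so that run does not settle how far the p-values hold here. The labels call the replicates biological, and p-values measure the spread between these samples.

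The members and lists were chosen with earlier results of these data known. All members in the table are named. From the lists of other inhibitors, target proteases, receptors and pathway genes, up to 3 genes per class and comparison with the largest absolute difference among those passing are named, and for likeness the 5 genes with the highest Pearson r to A2m and the 3 to each other member. The IL-6 family genes that were lower than in Sham are named as well. A few genes that met the rule are counted but not reported by name. Other steps ran in Python 3.11.15 (pandas 2.3.3, numpy 2.4.6, matplotlib 3.10.9, scipy 1.17.1). Promoter sequence was taken from RefSeq on GRCr8, another build than that of the counts, and matched by symbol. Alternatives were quantile normalization, median centring, a fit of the 2 groups alone, a block of library number (replicates 1 to 3 against the rest, a split made here since no label names a batch) or of replicate number, robust variances, no variance trend, unlowered degrees of freedom, omission of the lowest 25% of genes, a fold change above 2 as well, the exact Wilcoxon rank-sum test (adjusted over all genes), and omission of each library in turn. Leaving out the 3 libraries nearer to another group was added after seeing the data.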

Additional observations from a re-analysis of the deposited data

How the results depend on the processing

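The counts below are genes with an adjusted p under 0.05. For the 5 tested members the main counts were 3 in LPS/HI against Sham, 1 in LPS/HI against NaCl/HI, a further 1 in LPS against NaCl/HI and 0 elsewhere. The fit of the 2 groups alone gave 1 in LPS against Sham and 0 in LPS/HI against NaCl/HI. The exact Wilcoxon test gave 1 in LPS against Sham and 0 in both comparisons with NaCl/HI, where no gene could pass it. A fold change above 2 as well left 1, Slpi in LPS/HI against Sham, and 0 in both comparisons with NaCl/HI. Unlowered degrees of freedom gave 1 in LPS/HI against LPS, Serping1. When 1 library was left out, the counts ran from 2 to 3 in LPS/HI against Sham and from 0 to 1 in LPS against Sham, NaCl/HI against Sham and LPS/HI against NaCl/HI. Of 1215 single values of members under all settings, 1191 kept their side of the threshold and direction, 15 lost the call, 6 gained it and 3 turned their sign. Most of the 35 member results behind these values were not calls, and the 15 losses fall on the few that were. The next tally counts calls only, so the 2 tallies cannot be compared. Of 1740 values for the calls of 27 other inhibitor, protease, receptor and pathway genes that met the naming rule, 1385 kept the call, 355 lost it and 0 turned their sign. With all libraries, the calls of Spink1, Masp1, Serpinb6a and Pim1 (LPS/HI against NaCl/HI, then LPS) held in 6, 8, 4, 8 and 5 of 12 other settings, Fetub in LPS/HI against LPS in 5 of 11, and the C3 interaction in 5 of 10. The 3 member values were Cst3 under quantile normalization, at 0.16 in LPS against Sham, 0.16 in NaCl/HI against Sham and -0.30 in the interaction, all with adjusted p between 0.486 and 0.595. The cause was not tested. The differences of A2m moved by less than 1 SD in all 168 values of the 6 pairs under the settings, and when 1 library was left out ran from 0.74 to 0.84 for LPS/HI against Sham. Many of the 168 could not move, since leaving out a library of neither group leaves a difference unchanged. These are the values that chose the list, so they describe A2m and give no support for its pattern.

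For the 58 other inhibitors the main counts were 11, 0, 7, 4, 1, 3 and 1 in LPS against Sham, NaCl/HI against Sham, LPS/HI against Sham, LPS/HI against LPS, LPS/HI against NaCl/HI, LPS against NaCl/HI and the interaction. For the 31 target proteases they were 5, 0, 4, 1, 0, 5 and 1. Unlowered degrees of freedom gave 1, 11, 3, 6 and 2 inhibitors in NaCl/HI against Sham, LPS/HI against Sham, LPS/HI against NaCl/HI, LPS against NaCl/HI and the interaction, and 1, 7 and 3 proteases in NaCl/HI against Sham, LPS/HI against Sham and LPS/HI against LPS. The fit of the 2 groups alone gave 5, 4, 0, 0 and 1 inhibitors in LPS against Sham, LPS/HI against Sham, LPS/HI against LPS, LPS/HI against NaCl/HI and, last, LPS against NaCl/HI, and 3, 2, 0 and 1 proteases in LPS against Sham, LPS/HI against Sham, LPS/HI against LPS and LPS against NaCl/HI. No variance trend gave 2, 0 and 0 inhibitors in LPS/HI against LPS, LPS/HI against NaCl/HI and the interaction. Robust variances and the block of library number gave 0 inhibitors in LPS/HI against NaCl/HI, and that block 3 proteases in LPS against NaCl/HI. Median centring gave 7 and 1 inhibitors in LPS and NaCl/HI against Sham, and 2 and 3 proteases in LPS/HI against LPS and LPS against NaCl/HI. Quantile normalization gave 1, 1 and 0 inhibitors in NaCl/HI against Sham, LPS/HI against LPS and LPS/HI against NaCl/HI, and 1 protease in NaCl/HI against Sham. The exact Wilcoxon test gave 0 inhibitors in LPS/HI against LPS and both comparisons with NaCl/HI, and 2, 0 and 0 proteases in LPS/HI against Sham, LPS/HI against LPS and LPS against NaCl/HI. Of these comparisons, only LPS/HI against Sham was one in which any gene could pass that test. A fold change above 2 as well left 1 inhibitor in LPS/HI against LPS and in the interaction, and 0 inhibitors and proteases elsewhere. Without the 3 libraries nearer to another group there were 1, 2 and 0 inhibitors in NaCl/HI against Sham, LPS/HI against LPS and LPS/HI against NaCl/HI, and 1 and 3 proteases in NaCl/HI against Sham and LPS against NaCl/HI.

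The replicate number as a block changed no call of a member. It gave 5, 4, 1, 0 and 0 other inhibitors in LPS against Sham, LPS/HI against Sham, LPS/HI against LPS, LPS/HI against NaCl/HI and the interaction, and 2, 0, 2 and 0 target proteases in LPS/HI against Sham, LPS/HI against LPS, LPS against NaCl/HI and the interaction. Same-numbered samples share only a number: their deviations from the group means correlated above 0.1 in 9 of 33 pairs, and 5 of 23 samples correlated best with a sample of their own number.

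When 1 library was left out, the inhibitor counts ran from 6 to 12, 0 to 1, 3 to 10, 1 to 4, 0 to 2, 1 to 4 and 0 to 2 in the order above, and the protease counts from 4 to 6, 0 to 2, 1 to 6, 0 to 2, 0 to 0, 2 to 5 and 1 to 1. The inhibitor count in LPS/HI against NaCl/HI moved by over 1.5 times without 19 of the 23 libraries, and in LPS/HI against LPS without 15. The depth of the libraries is unknown, which limits what can be said of weakly expressed genes.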
